A study of Mus musculus with 9 samples.

Results

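The Hox genes of clusters A to D were read on arrays of adult mouse heart tissue, the septum together with the right ventricle, from 4 Ezh2-deficient and 5 wild-type hearts. Members were all genes of the platform annotation whose symbol is Hoxa, Hoxb, Hoxc or Hoxd followed by a number. A probe set with a single gene symbol was found for 37 members, out of 19935 genes with such a probe set in the whole table. The 37 were 10 genes of cluster A, 9 of cluster B, 9 of cluster C and 9 of cluster D, each read at 1 probe set. Hoxb8 is listed only on a probe set that it shares with Hoxb7 and was not analysed here. Members numbered 1 to 5 are called anterior (14 measured), those numbered 6 to 8 central (7 measured) and those numbered 9 to 13 posterior (16 measured).

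Ezh2-deficient hearts carried floxed Ezh2 alleles (Ezh2f/f) and the transgene Mef2cAHF::Cre, in which a Mef2c enhancer of the anterior heart field drives Cre recombinase. Wild-type hearts carried floxed Ezh2 by their genotype label (Ezh2f/f) and no Cre, although their titles read f/wt, and the labels do not settle which holds. All mice were adults on a mixed C57BL/6 background, and each array held 1 sample. Every Ezh2-deficient heart and no wild-type heart carried Cre, so loss of Ezh2 and presence of Cre cannot be told apart. The enhancer is active in progenitors of the right ventricle, septum and outflow tract, so cells of other origin in the same tissue keep Ezh2.

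Hox genes encode homeodomain transcription factors that give cells their position along the body axis. They lie in 4 clusters, and their order along the chromosome matches the order in which they are switched on from head to tail. Polycomb repressive complex 2, whose catalytic subunit is Ezh2, keeps Hox clusters silent in cells where they should be off, and failure to do so was how the Polycomb genes were first found in flies. In the mouse embryo Hoxb1 and a few other anterior members mark progenitors in the second heart field. Ventricular muscle of the adult is not known as a site of strong Hox expression.

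In mammals Polycomb complexes occupy promoters rich in CpG dinucleotides, and promoter sequences are shown for this reason. The RefSeq promoter table (GRCm38.p6) matched 21 of the 37 members. For each cluster the matched member with the smallest p for the genotype difference is printed, 250 bases before the listed transcript start, 5′ to 3′ on the gene's strand, with each CpG in capitals. They are Hoxa11 (chr6:52245811-52246060, minus strand, 13 CpG), Hoxb4 (chr11:96318017-96318266, plus strand, 14 CpG), Hoxc4 (chr15:103034145-103034394, plus strand, 8 CpG) and Hoxd8 (chr2:74704365-74704614, plus strand, 6 CpG). For cluster C the table held only Hoxc4.
Hoxa11: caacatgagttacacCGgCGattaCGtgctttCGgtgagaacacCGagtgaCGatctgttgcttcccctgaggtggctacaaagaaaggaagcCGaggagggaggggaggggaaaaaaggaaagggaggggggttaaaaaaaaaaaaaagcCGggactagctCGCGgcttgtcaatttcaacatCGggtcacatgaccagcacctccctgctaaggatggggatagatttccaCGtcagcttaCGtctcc
Hoxb4: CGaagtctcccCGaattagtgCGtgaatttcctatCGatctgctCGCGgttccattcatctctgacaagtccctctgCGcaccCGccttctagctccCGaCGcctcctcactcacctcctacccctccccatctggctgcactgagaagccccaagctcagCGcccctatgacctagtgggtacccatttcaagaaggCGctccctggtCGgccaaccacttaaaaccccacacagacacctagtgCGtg
Hoxc4: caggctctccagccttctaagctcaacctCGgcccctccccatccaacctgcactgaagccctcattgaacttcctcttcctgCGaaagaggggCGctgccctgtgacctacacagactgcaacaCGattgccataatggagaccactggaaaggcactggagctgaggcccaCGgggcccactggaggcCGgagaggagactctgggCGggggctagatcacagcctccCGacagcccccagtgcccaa
Hoxd8: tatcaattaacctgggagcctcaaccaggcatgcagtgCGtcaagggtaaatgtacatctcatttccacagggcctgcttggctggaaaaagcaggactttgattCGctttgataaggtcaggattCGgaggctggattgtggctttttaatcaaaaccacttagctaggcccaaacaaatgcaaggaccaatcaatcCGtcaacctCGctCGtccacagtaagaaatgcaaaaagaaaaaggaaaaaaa

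The searched motif was CG, which reads the same on both strands. It occurred in all 21 windows of Hox members, with a median of 12 per window and a range from 2 in Hoxd11 to 35 in Hoxa13. Over the first listed window of 27025 genes, 91.7% held at least 1 CG, with a median of 6. A GC content over 50% together with a ratio of observed to expected CpG over 0.6 was met by 9 of the 21 Hox windows (42.9%) and by 31.2% of all windows. The 9 were those of Hoxa3, Hoxa5, Hoxa6, Hoxa11, Hoxa13, Hoxb4, Hoxd1, Hoxd10 and Hoxd13. A window of this length does not cover a whole CpG island.

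No Hox gene passed the test for a difference between Ezh2-deficient and wild-type hearts. Limma called 0 of the 37 members at an adjusted p of 0.05, where 0.0347% of all 28815 probe sets were called. At an unadjusted p under 0.05 there were 2 members, Hoxb13 with a higher and Hoxb4 with a lower mean in Ezh2-deficient hearts. That is a share of 5.41%, against 10.7% of all probe sets (5.23% higher and 5.45% lower). Most members, 31 of the 37, were dim by the gauge given below, and among all equally dim probe sets the share was 4.79%. The smallest adjusted p of any member was 0.393, for Hoxb13.

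The differences were small as well as uncalled. On the log2 scale they ran from -0.09 (Hoxc4) to 0.16 (Hoxb13), with a median of 0.00855, against a median of -0.00555 over all probe sets. The median size of the difference, regardless of sign, was 0.041 over the members and 0.060 over all probe sets. Among the dim probe sets, the closer comparison for most members, it was 0.050. For 33 of the 37 members the 95% interval of the difference lay within -0.3 to 0.3, and the others were Hoxa5, Hoxb13, Hoxc4 and Hoxc12. Such intervals were common, with 21093 of all 28815 probe sets and 9025 of the 11264 dim probe sets defined below. Among the Hox members the highest upper limit was 0.44 for Hoxc12, a fold of 1.35. The lowest lower limit among them was -0.34 for Hoxc4, a fold of 0.788. These limits apply to array values of whole tissue, in which fewer cells of a type and less RNA per cell cannot be told apart and a change in few cells is diluted.

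**Figure D1:**
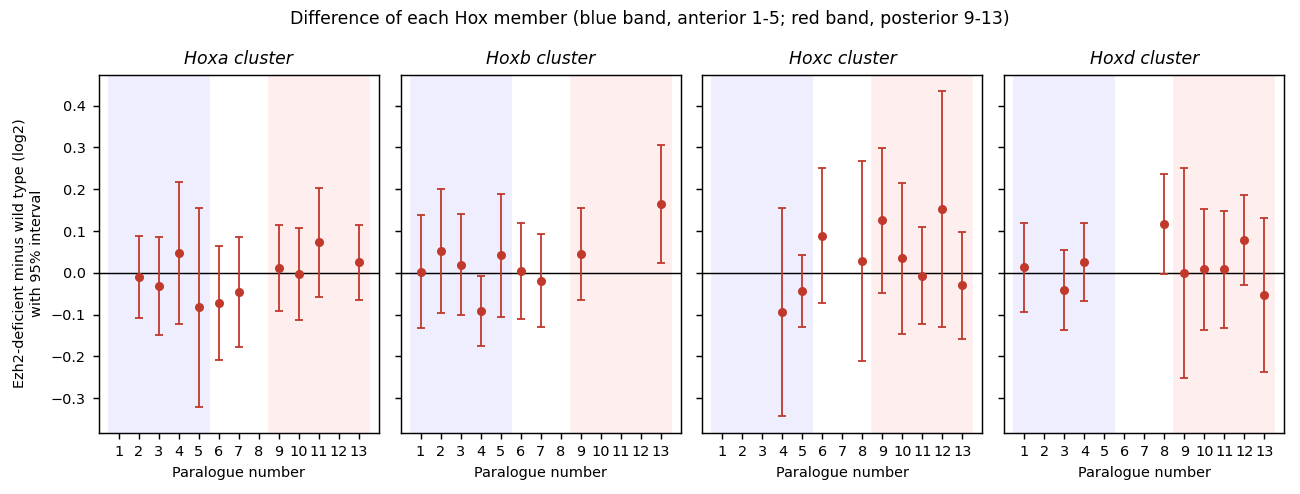
Ezh2-deficient minus wild-type difference on the log2 scale for the 37 Hox members, by cluster and paralogue number, with limma's 95% interval (n = 4 and 5 hearts). Intervals of 35 members cross 0; that of Hoxb13 lies above 0 and that of Hoxb4 below it.

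Most Hox probe sets were dim. As a gauge of brightness where little transcript is likely in a heart, the 1023 probe sets of olfactory receptor genes were used, of which 95 percent had a mean of 6.64 or less on the log2 scale. A total of 31 Hox members lay at or under this value and 6 lay above it, namely Hoxa4, Hoxb1, Hoxb3, Hoxb5, Hoxb6 and Hoxb9. Brightness also depends on the probes, so it is given as a guide to measurability and not as an amount of RNA. All 6 brighter members had a slightly higher mean in Ezh2-deficient hearts, by 0.00295 (Hoxb1) to 0.048 (Hoxa4), and the highest upper limit among them was 0.22. These signs were not stable: with arrays centred on their median 4 of the 6 were higher, Hoxb1 at -0.01 and Hoxb6 at -0.01 being lower, and without Ezh2-deficient heart 3 and wild-type heart 4 only 1 was. On dim probe sets a change in RNA is understated by the array. Of all 11264 probe sets at or under the same brightness, limma called 0.00888%, which is 1 probe set, and 4.79% had an unadjusted p under 0.05.

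That 1 called dim probe set was that of Eya1, a coactivator and phosphatase of embryonic progenitor cells, which is no Hox gene. Its mean of 6.61 lay just under the limit of 6.64, while the Hox members at or under that limit had a median mean of 6.12. Eya1 was picked because it was called, so it does not show what could be detected at the brightness of most Hox members. Eya1 read 6.92, 7.04, 6.86 and 6.90 in Ezh2-deficient hearts, against 6.29, 6.23, 6.43, 6.34 and 6.49 in wild-type hearts. Its difference of 0.57 (SE 0.06, limma adjusted p = 0.0250) exceeded the upper limit of every Hox member's interval.

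Hox values also varied little between hearts of a group. The residual SD, which is the spread of hearts about their own group mean, had a median of 0.085 over the Hox members and 0.104 over all probe sets. It ran from 0.032 for Hoxb4 to 0.216 for Hoxc12. At least 2 hearts had the same value, equal to all 3 deposited decimals, in 31 of the 37 members (83.8%), against 76.2% of the probe sets at or under the olfactory level and 59.9% of all probe sets.

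Among anterior members, which act in the hindbrain, neck and upper trunk, Hoxb4 was the only Hox gene whose groups did not overlap. Hoxb4, a factor used to expand blood stem cells, read 6.56, 6.57, 6.57 and 6.55 in Ezh2-deficient hearts, against 6.65, 6.73, 6.63, 6.63 and 6.63 in wild-type hearts. Every Ezh2-deficient heart thus lay below every wild-type heart, by a narrow margin, and wild-type heart 2 was the highest. The difference was -0.09 (SE 0.04, 95% interval -0.18 to -0.0074, limma adjusted p = 0.426), a fold of 0.938. Groups did not overlap for 3.71% of all probe sets, and 1.91% of all probe sets lay lower without overlap. Among probe sets at or under the olfactory level 0.906% did not overlap, and the count of 1 in 37 is to be read against these shares.

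Hoxc4 had the lowest difference of the members and one of the widest spreads. It read 5.22, 5.13, 5.38 and 5.45 in Ezh2-deficient hearts, against 5.38, 5.45, 5.49, 5.03 and 5.60 in wild-type hearts. Wild-type heart 4 was the lowest and wild-type heart 5 the highest, so the Ezh2-deficient values lay inside the wild-type range (difference -0.09, SE 0.11, adjusted p = 0.800). Hoxd3, a trunk and hindbrain member, read 6.32 in Ezh2-deficient heart 1, and the other 8 hearts lay between 6.46 and 6.48 (difference -0.04, SE 0.04, adjusted p = 0.765).

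Members with a role in heart progenitors gave no larger values. Hoxb1 averaged 7.39 ± 0.08 in Ezh2-deficient hearts (SD, n = 4) and 7.39 ± 0.10 in wild-type hearts (SD, n = 5), with a difference of 0.00295 (95% interval -0.13 to 0.14). Hoxa3, needed for structures of the throat such as the thymus, differed by -0.03 (95% interval -0.15 to 0.09). Hoxa2, the selector gene of the second branchial arch, differed by -0.01. Hoxa5, which acts in lung development, differed by -0.08 with a wide interval of -0.32 to 0.16. The other anterior members, Hoxa4, Hoxb2, Hoxb3, Hoxb5, Hoxc5, Hoxd1 and Hoxd4, had differences between -0.04 (Hoxc5) and 0.05 (Hoxb2).

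Central members, which pattern the trunk, included Hoxd8, the third smallest p of the 37. Hoxd8 read 5.90, 6.02, 5.92 and 6.02 in Ezh2-deficient hearts, against 5.92, 5.77, 5.88, 5.92 and 5.76 in wild-type hearts. The groups met near 5.92, with Ezh2-deficient hearts 2 and 4 above all wild-type hearts (difference 0.12, SE 0.05, unadjusted p = 0.0539, adjusted p = 0.476). Its paralogue Hoxc8 differed by 0.03 (SE 0.11), with values between 5.54 and 5.94 in Ezh2-deficient hearts and between 5.43 and 5.96 in wild-type hearts.

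Hoxc6, a trunk and forelimb-level member, read 5.57, 5.64, 5.80 and 5.84 in Ezh2-deficient hearts, against 5.54, 5.77, 5.66, 5.64 and 5.51 in wild-type hearts. The ranges overlapped over most of their length, and the difference of 0.09 (SE 0.07, adjusted p = 0.692) did not pass. Hoxa6 read 6.43, 6.51, 6.74 and 6.53 in Ezh2-deficient hearts, against 6.64, 6.67, 6.61, 6.56 and 6.63 in wild-type hearts. Here 3 of the 4 Ezh2-deficient hearts lay below all wild-type hearts while heart 3 lay above them all (difference -0.07, SE 0.06, adjusted p = 0.707). Hoxa7 read 6.61, 6.41, 6.61 and 6.61 in Ezh2-deficient hearts, against 6.67, 6.65, 6.62, 6.48 and 6.61 in wild-type hearts (difference -0.05, SE 0.06). Hoxb6 and Hoxb7, both also active in trunk mesoderm, differed by 0.0042 and -0.02.

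Posterior members act in the lower trunk, limbs and urogenital tract, and Hoxb13, a factor of the tail and prostate, had the largest Hox difference. Hoxb13 read 5.98, 6.12, 6.15 and 6.07 in Ezh2-deficient hearts, against 5.82, 6.06, 5.98, 5.92 and 5.81 in wild-type hearts. Ezh2-deficient hearts 2, 3 and 4 lay above all wild-type hearts, and heart 1 lay just under wild-type heart 3. The difference was 0.16 (SE 0.06, 95% interval 0.02 to 0.30, unadjusted p = 0.0269, limma adjusted p = 0.393), a fold of 1.12.

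Hoxc12, known from hair follicles and hind parts of the body, read 6.09, 5.92, 6.43 and 6.03 in Ezh2-deficient hearts, against 5.68, 6.20, 6.03, 5.82 and 6.10 in wild-type hearts. Its highest value came from Ezh2-deficient heart 3 and its lowest from wild-type heart 1, and the groups overlapped (difference 0.15, SE 0.13, adjusted p = 0.699). Hoxc9, which sets thoracic motor neuron identity, read 6.09, 6.09, 6.35 and 6.04 in Ezh2-deficient hearts, against 6.09, 6.09, 6.09, 5.85 and 5.96 in wild-type hearts. Only Ezh2-deficient heart 3 stood above the wild-type hearts (difference 0.13, SE 0.08, adjusted p = 0.601; without that heart the difference was 0.05).

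Hoxd12, a limb gene, read 6.15, 6.15, 6.30 and 6.20 in Ezh2-deficient hearts, against 6.15, 6.15, 6.13, 6.03 and 6.15 in wild-type hearts (difference 0.08, SE 0.05, adjusted p = 0.594). Hoxa11, which patterns the forearm, kidney and uterus, read 5.87, 5.87, 6.08 and 5.87 in Ezh2-deficient hearts, against 5.83, 5.88, 5.94, 5.76 and 5.85 in wild-type hearts (difference 0.07, SE 0.06, adjusted p = 0.687). In both genes Ezh2-deficient heart 3 was the highest and wild-type heart 4 the lowest of all 9 hearts.

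Hoxd9, a lower-trunk member, read 6.38, 6.51, 6.79 and 6.52 in Ezh2-deficient hearts, against 6.70, 6.63, 6.61, 6.20 and 6.63 in wild-type hearts, with the same 2 hearts at the extremes (difference -0.0013, SE 0.11). Hoxb9 read 6.80, 6.76, 6.94 and 6.85 in Ezh2-deficient hearts, against 6.74, 6.82, 6.87, 6.76 and 6.77 in wild-type hearts (difference 0.05, SE 0.05). The remaining posterior members are the other group 13 genes of limb tips and hindgut (Hoxa13, Hoxc13 and Hoxd13), together with Hoxa9, Hoxa10, Hoxc10, Hoxc11, Hoxd10 and Hoxd11. Their differences lay between -0.05 (Hoxd13) and 0.03 (Hoxc10).

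**Figure D2:**
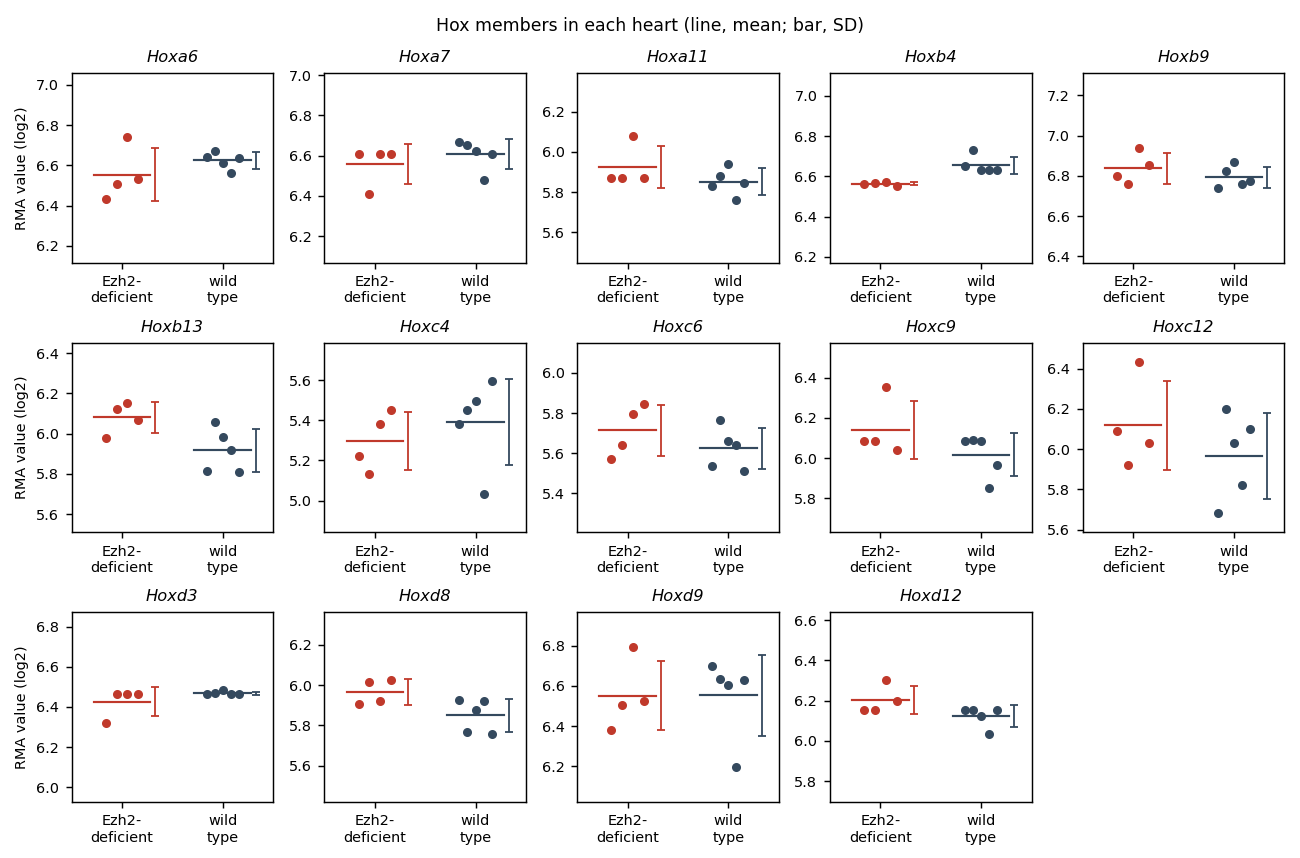
RMA value (log2) of 14 Hox members in each heart, Ezh2-deficient on the left and wild type on the right of each panel; the line is the group mean and the bar its SD (n = 4 and 5). All panels span the same range but start at different levels; Hoxb4 is the panel in which the groups do not overlap.

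The 4 clusters did not separate. The median difference was -0.0066 in cluster A (4 of 10 members with a higher mean), 0.019 in cluster B (7 of 9), 0.028 in cluster C (5 of 9) and 0.0086 in cluster D (6 of 9). Over all 37 members 22 had a higher mean (59.5%), against 47.1% of all probe sets. With arrays centred on their median the count was 16 (43.2%), against 40.0% of all probe sets, and with arrays centred on the olfactory receptor probe sets it was 27 (73.0%), against 56.6%. The cluster means per heart, each taken as the deviation from every member's own mean, overlapped between the groups in all 4 clusters. For cluster C, the cluster with the widest spread, they were -0.02, -0.06, 0.12 and 0.02 in Ezh2-deficient hearts, against -0.05, 0.08, 0.03, -0.14 and 0.0084 in wild-type hearts.

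Anterior members had slightly lower differences than posterior members. The median difference was -0.0036 over the 14 anterior members, 7 of them with a higher mean, 0.0042 over the 7 central members, 4 higher, and 0.018 over the 16 posterior members, 11 higher. The anterior median minus the posterior median was -0.021, and it lay below 0 under every alternative run, from -0.0683 to -0.0144. Some alternatives could not change it, so they add no evidence. Centring shifts all members of an array alike, and another variance prior or averaging of probe sets leaves the differences as they were. The value of -0.0144 came from the brightness filter, under which Hoxb9 was the only posterior member left. The alternatives share most of their hearts, and the contrast has no test, since the members were chosen with results known. Per-heart means of the anterior members ran from -0.06 to 0.04 in Ezh2-deficient hearts and from -0.07 to 0.05 in wild-type hearts. Those of the posterior members were -0.02, -0.02, 0.13 and -0.00037 in Ezh2-deficient hearts, against -0.04, 0.05, 0.02, -0.13 and 0.0075 in wild-type hearts. Posterior means thus overlapped, with Ezh2-deficient heart 3 alone at the top and wild-type heart 4 alone at the bottom. Taken within each heart, the anterior mean minus the posterior mean was -0.03, 0.0063, -0.09 and -0.0074 in Ezh2-deficient hearts, against 0.04, -0.0071, 0.03, 0.05 and 0.0016 in wild-type hearts. The groups overlapped, with Ezh2-deficient heart 2 among the wild-type hearts and wild-type hearts 2 and 5 among the Ezh2-deficient ones. The group means of this within-heart contrast were -0.03 ± 0.04 in Ezh2-deficient hearts (SD, n = 4) and 0.02 ± 0.03 in wild-type hearts (SD, n = 5), a difference of -0.0531. It was -0.0342 without Ezh2-deficient heart 3, -0.0453 without wild-type heart 4 and -0.0265 without both. By cluster, posterior medians were 0.018 in A, 0.10 in B, 0.035 in C and 0.0080 in D, and anterior medians were -0.02 in A, 0.019 in B, -0.07 in C and 0.013 in D. By paralogue number the highest median was that of group 12, Hoxc12 and Hoxd12, at 0.12, and the lowest that of group 5, Hoxa5, Hoxb5 and Hoxc5, at -0.04.

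**Figure D3:**
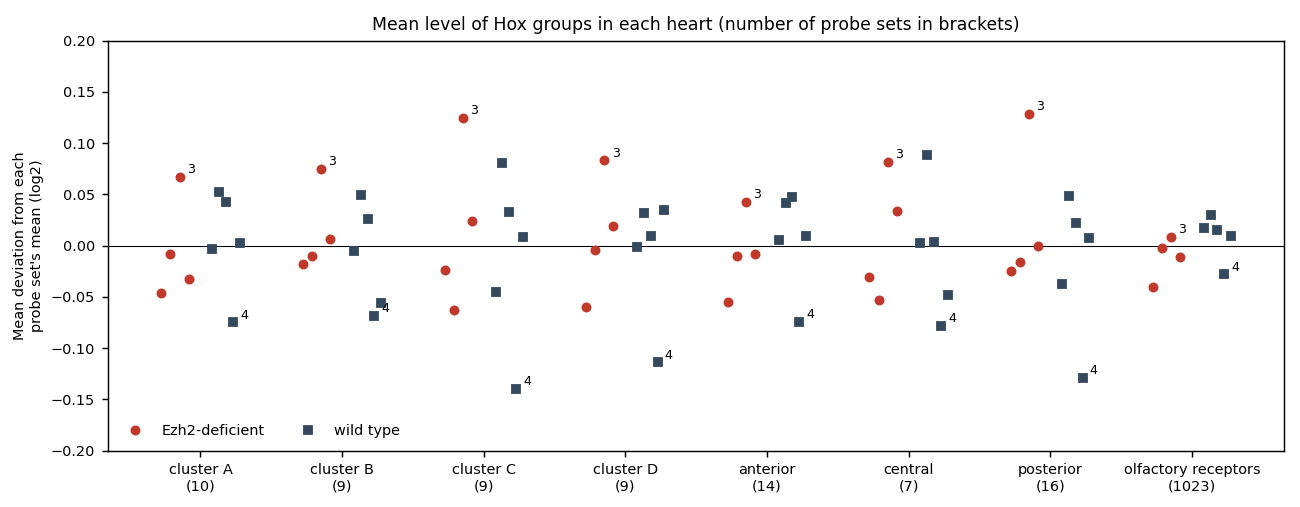
Mean deviation (log2) of each heart from the members' own means, for the 4 clusters, for anterior, central and posterior members, and for olfactory receptor probe sets; each point is a heart, with Ezh2-deficient heart 3 and wild-type heart 4 numbered. The groups overlap in every set, and those hearts lie at the ends in clusters A to D and in the posterior members.

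The extremes of the Hox values came most often from 1 heart of each group. Ezh2-deficient heart 3 held the highest value of 15 of the 37 members and the lowest of 0, and wild-type heart 4 held the lowest of 15 and the highest of 1. Among olfactory receptor probe sets these hearts held the highest value in 14.5% and the lowest in 19.1%. Over all Hox members the mean deviation was 0.09 in Ezh2-deficient heart 3, against -0.04 to 0.0032 in the other Ezh2-deficient hearts. It was -0.10 in wild-type heart 4, against -0.01 to 0.05 in the other wild-type hearts. Without heart 3 the count of members with a higher mean in Ezh2-deficient hearts was 14 of 37. It was also 14 without wild-type heart 4, and 9 without both. Limma called 0 members each time, and 9, 3 and 3 of all 28815 probe sets in these fits.

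Both hearts also stood out in other measures. The mean deviation of 12 blood and immune markers was 0.45 in Ezh2-deficient heart 3, against -0.10 to 0.10 in the other Ezh2-deficient hearts. It was 0.29 in wild-type heart 4, against -0.37 to -0.01 in the other wild-type hearts. Of 10 erythrocyte markers listed 4 were measured, and their mean deviation was 1.26 in Ezh2-deficient heart 3 and 0.17 in wild-type heart 4. The array median was highest in Ezh2-deficient heart 3 (7.25) and lowest in wild-type heart 4 (7.19). The Y-linked genes Eif2s3y and Kdm5d were low in both and in Ezh2-deficient heart 1. Beyond the alternative fits, the part of blood, array level or sex in the Hox values was not tested. Among those fits were ones without these hearts, with arrays normalized or centred again, and with the Y-linked genes as a covariate.

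**Figure D4:**
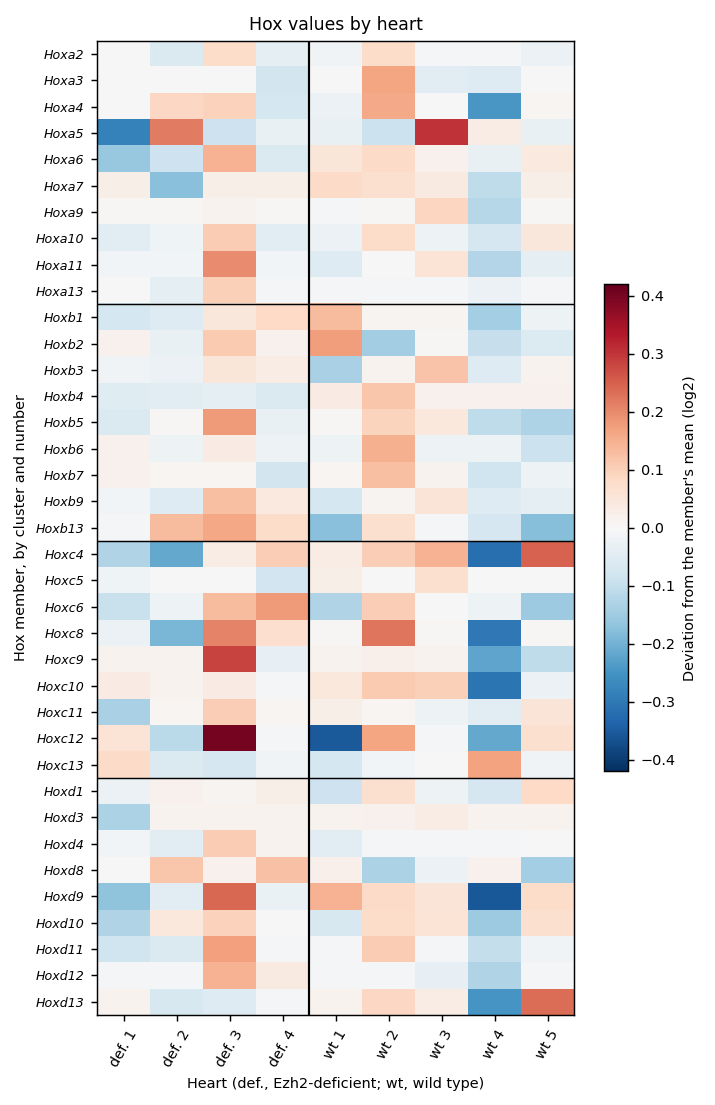
Deviation (log2) of each of the 37 Hox members from its own mean in each of the 9 hearts, Ezh2-deficient left of the vertical line and wild type right of it; horizontal lines separate the clusters A to D from top to bottom. Ezh2-deficient heart 3 holds the highest value in 15 rows and wild-type heart 4 the lowest in 15, and Hoxb4 is the only row in which the groups do not overlap.

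Other transcripts of the clusters and their flanks gave no call. Of 25 listed, 18 had a probe set, limma called 0, and 1 had an unadjusted p under 0.05, the precursor of miR-10a. That is a share of 5.56%, against 10.7% of all probe sets and 4.79% of those at or under the olfactory level. The clusters hold miR-10 and miR-196 genes between Hox genes, and both families target Hox messages. Their mature sequences (RefSeq, GRCm38.p6), with the seed at bases 2 to 8 in capitals, show that each family shares 1 seed across clusters. The miR-10 pair differs at 1 base and the miR-196 pair at 1 base, both outside the seed. Mir10a lies on chromosome 11 in cluster B, Mir10b on chromosome 2 in cluster D, Mir196a-1 on chromosome 11, Mir196a-2 on chromosome 15 and Mir196b on chromosome 6.
miR-10a-5p: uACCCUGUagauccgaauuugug
miR-10b-5p: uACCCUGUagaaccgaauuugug
miR-196a-5p: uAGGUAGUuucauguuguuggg
miR-196b-5p: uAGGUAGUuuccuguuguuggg

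The Mir10a probe set read 3.04, 2.99, 3.04 and 3.03 in Ezh2-deficient hearts, against 3.28, 3.03, 3.15, 3.10 and 3.27 in wild-type hearts. Both groups overlapped at wild-type heart 2 (difference -0.14, SE 0.06, unadjusted p = 0.0346, adjusted p = 0.421). Mir10b differed by 0.04 (SE 0.08), Mir196a-1 by -0.18 (SE 0.09), Mir196a-2 by 0.15 (SE 0.11) and Mir196b by 0.04 (SE 0.06). The arrays were not made for mature miRNAs, and these values refer to the probe sets annotated to the miRNA genes. Those of Mir10a and Mir10b were very dim, with means of 3.10 and 3.28, at percentiles 1.33 and 2.18 of all probe sets. The Mir196 probe sets also lay under the olfactory limit of 6.64. Hottip, a non-coding RNA at the posterior end of cluster A that activates its neighbours in human cells, differed by 0.04 (SE 0.06), and the even-skipped homologues Evx1 and Evx2 by -0.02 (SE 0.04) and 0.06 (SE 0.10). The flanking gene Snx10 (0.18, SE 0.08) did not pass either. Of these, only Mir10a, Snx10 and Mir196a-1 were picked by their p, and the others were named for their place in the clusters after their values were seen.

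Genes that act with or upstream of Hox genes were read from lists. Of the TALE homeodomain cofactors, which bind DNA together with Hox proteins, 10 of 11 were measured, 0 were called by limma and 1 had an unadjusted p under 0.05, a share near the 10.7% of all probe sets. That was Pbx3, which read 8.06, 7.87, 8.12 and 8.09 in Ezh2-deficient hearts, against 7.84, 7.93, 7.87, 7.94 and 7.61 in wild-type hearts (difference 0.20, SE 0.08, adjusted p = 0.407). Ezh2-deficient heart 2 lay among the wild-type hearts and the other 3 above them. Meis3 differed by 0.12 (SE 0.06) and Tgif1 by 0.15 (SE 0.09). The median difference over the 10 was 0.036.

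Chromatin regulators of Hox clusters did not pass. Of 13 genes for Polycomb complex 2 and the opposing demethylases, 0 were called and 1, Ezh1, had an unadjusted p under 0.05 (difference -0.11, SE 0.05, adjusted p = 0.434), a share of 7.69% against 10.7% of all probe sets. Ezh2 itself read 8.94, 8.74, 8.98 and 8.86 in Ezh2-deficient hearts, against 8.89, 8.60, 8.68, 8.80 and 8.66 in wild-type hearts. The Ezh2 groups overlapped (difference 0.15, SE 0.07, adjusted p = 0.485), and since the position of its probes relative to the floxed part is not given, the value does not check the labels. Of Polycomb complex 1 genes 10 of 12 were measured, with 0 called and 0 at an unadjusted p under 0.05 (Ring1 -0.10, SE 0.05; Bmi1 0.17, SE 0.09; Cbx2 0.11, SE 0.09). Of trithorax genes, which keep Hox clusters active, 9 of 10 were measured, with 0 called and 0 at an unadjusted p under 0.05 (Men1 0.09, SE 0.05). Of the Cdx and ParaHox genes, relatives and regulators of Hox genes, all 6 were measured, with 0 called and 0 at an unadjusted p under 0.05, and Cdx1 had the smallest p (0.13, SE 0.06, adjusted p = 0.480).

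Retinoic acid switches on anterior Hox genes in embryos, and its signalling genes held the largest differences among the regulators. Of 18 listed, 17 were measured, limma called 0, and 4 had an unadjusted p under 0.05, 2 higher and 2 lower, a share of 23.5% against 10.7% of all probe sets. Rarb, a retinoic acid receptor that is itself induced by retinoic acid, read 8.808, 8.722, 8.613 and 8.832 in Ezh2-deficient hearts, against 8.996, 8.928, 9.199, 9.195 and 9.136 in wild-type hearts. All Ezh2-deficient hearts lay below all wild-type hearts (difference -0.35, SE 0.07, unadjusted p = 0.00074, adjusted p = 0.132). The largest difference of the list ran the other way, in Aldh1a2, a retinoic acid synthesis enzyme (0.50, SE 0.22, unadjusted p = 0.0425, adjusted p = 0.446), whose groups overlapped; it was named after its values were seen. The groups did not overlap either for Rxrg, a partner receptor (-0.24, SE 0.06, adjusted p = 0.210), or for Aldh1a3, another synthesis enzyme (0.17, SE 0.07, adjusted p = 0.437). Groups that do not overlap were found for 3 of the 17 genes and for 3.71% of all probe sets. The median difference of the 17 was 0.0022.

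Markers of other cell types differed in mean between the genotypes without a call. All 12 fibroblast markers had a higher mean in Ezh2-deficient hearts, with a median difference of 0.45; limma called 0 of them and 9 had an unadjusted p under 0.05, which is 75.0% of the list against 10.7% of all probe sets. Their mean deviation per heart ran from 0.12 to 0.41 in Ezh2-deficient hearts and from -0.56 to 0.03 in wild-type hearts, without overlap. All 9 endothelial markers had a higher mean (median 0.27, 0 called, 3 at an unadjusted p under 0.05), and all 8 cardiomyocyte markers a lower one (median -0.07, 0 called, 1 at an unadjusted p under 0.05). These counts are 33.3% of the endothelial and 12.5% of the cardiomyocyte list, the second of them near the share over all probe sets. Heart muscle markers were bright in every heart, with Tnnt2, the cardiac troponin T, at 13.95 ± 0.05 in Ezh2-deficient hearts (SD, n = 4) and 14.04 ± 0.03 in wild-type hearts (SD, n = 5). The cardiac muscle label was thus borne out by its markers in both groups, while markers of atrial muscle varied widely between hearts of each group. The mean deviation of 6 atrial markers was -0.73, 0.81, -0.22 and 0.33 in Ezh2-deficient hearts. It was 0.46, 0.30, -1.32, 0.25 and 0.12 in wild-type hearts, and limma called 0 of the 6. Whether the samples differed in the heart regions they held was not tested. The part of these markers in the Hox values was not tested.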

How the data were processed

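Each of 9 hearts gave 1 Affymetrix array. The deposited values are on a log2 scale, 1 per probe set, and the submitters' processing notes name RMA and Affymetrix Power Tools as the authors' tools; no version is named there. The log2 scale was read from the range (2.18 to 15.0) and the method. Other per-sample columns numbered 0. Gene names came from the platform's annotation table, in which 21780 probe sets have 1 symbol, 1605 several and 5430 none; all 37 member identifiers matched RefSeq. A gene was read at its single-symbol probe set with the highest mean.

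Groups came from the description label. The labels speak of separate mice; replicate numbers follow the sample order and pair nothing. Limma's lmFit and eBayes (R 4.3.3, limma 3.58.1), with genotype as the only term, ran over all 28815 probe sets, two-sided, with Benjamini-Hochberg adjustment over all of them and a threshold of 0.05. The number of arrays limits the precision. Array medians lay between 7.19 and 7.25. The fit was tested on simulated data with independent normal noise, without tied values and without changes understated at dim probe sets. That simulation therefore does not show what could be detected for dim Hox members. Members and lists were chosen with earlier results of these data known, so lists are described by counts and medians, without a test. Members with values in every heart were, by rule, the 3 smallest p of each cluster, those without overlap and the 3 largest residual SDs. Alternatives were another normalization or centring, hearts left out, the title letter (e or x) as a block or within each letter, Y-linked genes as a covariate, a brightness filter, array weights and another variance prior.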

Additional observations from a re-analysis of the deposited data

Results flagged for a closer look

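Within each group, single hearts were compared with the others for every Hox member by Dixon's test, which chance alone passes in about 1 of 20 groups; 16 of 74 groups were singled out. In many of them the other hearts shared 1 value, so that a small deviation took up the whole range. Ezh2-deficient heart 3 was high for Hoxa11 (6.08, against 5.87 in the others), Hoxc9 (6.35, against 6.04 to 6.09) and Hoxa9 (6.196, against 6.186 in each of the others). It was also high in the mean of the posterior members (0.13, against -0.02 to -0.00037). Wild-type heart 4 was low for Hoxd9 (6.20, against 6.61 to 6.70), Hoxd12 (6.03, against 6.13 to 6.15) and Hoxa13 (6.55, against 6.56), and in the mean of cluster D (-0.11, against -0.0015 to 0.03). Wild-type heart 2 was high for Hoxa2 (5.34), Hoxa3 (5.67), Hoxb4 (6.73) and Hoxb6 (6.81). Ezh2-deficient heart 4 was low for Hoxa3 (5.43) and Hoxb7 (6.08), Ezh2-deficient heart 2 for Hoxa7 (6.41) and Ezh2-deficient heart 1 for Hoxd3 (6.32). Wild-type heart 3 was high for Hoxd3 (6.48), and wild-type heart 1 was low for Hoxd4 (6.17).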

How the results depend on the processing

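Limma called 0 Hox members under each of 22 alternatives, 20 of them planned and 2 added after the data were seen. Each run tested all 37 members, except that the brightness filter left 6. Calls were few over all 28815 probe sets too, from 0 within letter e and within letter x to 37 with array weights. The brightness filter gave 19 calls among 17551 probe sets. A count of 0 Hox members is to be read against these shares. The lowest limma adjusted p among 783 member values was 0.280. The sign of the difference changed under at least 1 alternative for 25 members and held for 12, among them Hoxb4 (-0.13 to -0.06), Hoxb13 (0.09 to 0.23) and Hoxd8 (0.09 to 0.15). The 25 include Hoxd13, whose difference rose to 0 under 1 alternative but never above it. The count of members with a higher mean, 22 with all hearts, ran from 14 to 27 with 1 heart left out and reached 28 within letter x. It was 14 without wild-type hearts 4 and 5, 14 within letter e, 13 with array weights, 9 without Ezh2-deficient heart 3 and wild-type heart 4 (added), and 6 of 6 among brighter probe sets. Within letter e (2 against 2 hearts) the median difference was -0.0635 over all members, -0.0612 in cluster A, -0.065 in cluster B, -0.0635 in cluster C and -0.0705 over anterior members, and anterior minus posterior was -0.059. Within letter x (2 against 3 hearts) cluster D gave 0.0808 and anterior minus posterior -0.0683. Cluster D gave -0.0543 without Ezh2-deficient heart 3 and wild-type heart 4, and cluster A, with Hoxa4 alone among brighter probe sets, gave 0.0477. The causes were not tested. With 1 heart left out the Hox median ran from -0.02 to 0.03 and anterior minus posterior from -0.04 to -0.02. Each member has 1 single-symbol probe set, so averaging probe sets changed nothing, and the brightness filter left clusters C and D without members. No paired analysis was possible because the labels give the groups no shared replicate numbers. Dim signal limits what could be detected for 31 of the 37 members.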
